A study of Mus musculus with 17 samples.

Results

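The genes described here are 10 genes of cellular iron uptake, storage and export, followed across preleukaemic and leukaemic erythroid blasts of Spi1-transgenic mice. They were taken by gene name from the deposited count tables, where they are 10 of 26029 genes in the table of the first leukaemia model and 10 of 24659 genes in that of the second. Transferrin uptake is represented by Tfrc, Tfr2, Steap3 and Slc11a2, mitochondrial iron import by Slc25a37, storage by the ferritin chains Fth1 and Ftl1, regulation by the iron regulatory proteins Aco1 and Ireb2, and export by Slc40a1. All 10 passed the filter on low counts in every fit, so no member was lost before testing.

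Poly(A) RNA was sequenced from blasts of 17 mice, 1 library per mouse, grown in medium with erythropoietin (EPO). In model 1 (strain DBA2JxFVB/N) there were preleukaemic TgSpi1FA+/+ cells from 4 mice, which carry the Spi1 transgene and intact Fanca (TgSpi1Fanca.wt in the labels), preleukaemic TgSpi1FA-/- cells from 3 mice, which also lack Fanca (TgSpi1Fanca.ko), and leukaemic TgSpi1FA-/- cells from another 3 mice. Model 2 (strain DBA2J) held TgSpi1FA+/+ cells with intact Fanca, preleukaemic from 4 mice and leukaemic from 3 mice, the latter having emerged after serial transfusion of the animals. Every group thus carries the Spi1 transgene, the preleukaemic cells depend on EPO and the leukaemic cells do not, and model, strain, RNA input and fragmentation time differ together, so that their parts in any difference between models cannot be told apart. Libraries are named as in their titles, and the values of a group are given in the same order throughout: preleukemic_445, preleukemic_479, preleukemic_451 and preleukemic_138, then preleukemic_77, preleukemic_224 and preleukemic_40, then leukemic_26, leukemic_28 and leukemic_39 in model 1, and preleukemic_633, preleukemic_663, preleukemic_812 and preleukemic_837, then leukemic_601, leukemic_606 and leukemic_921 in model 2. Apart from those transfusions the labels and methods name no treatment of the animals these cells came from, and the ages of the animals were not used here.

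Library totals were 29964576 to 38217654 counts in model 1 and 37726753 to 40514205 in model 2. Fanca lay at 28.2 to 83.5 CPM (read counts scaled to library size) in the 4 TgSpi1FA+/+ libraries of model 1 and at 0.615 to 2.30 CPM in all 6 TgSpi1FA-/- libraries, as their labels say. Spi1 was at 467 to 1061 CPM in the 7 preleukaemic libraries of model 1. It was at 630, 220 and 3.88 CPM in the 3 leukaemic libraries, so that leukemic_39 stands apart. The weight of leukemic_39 is given with each member called by edgeR. For other genes of iron handling only the number of calls without leukemic_39 is given, not which genes kept theirs. For called marker genes its weight is not given. The libraries preleukemic_445 and preleukemic_479 were closer to each other (chi-square per degree of freedom of 8.53 over genes) than any other pair of one group in model 1 (114 to 372); they still differed by more than sampling noise and were counted as 2 mice. The source field of the 3 preleukaemic TgSpi1FA-/- libraries calls them leukaemic, whereas their titles and stage labels say preleukaemic, which was followed.

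Erythroid precursors take up most of the iron of the body to make haem. Transferrin-bound iron enters through the transferrin receptor TFR1, encoded by Tfrc, is reduced in the endosome by STEAP3, leaves it through DMT1, encoded by Slc11a2, and reaches the mitochondrion through mitoferrin 1, encoded by Slc25a37. Surplus iron is stored in ferritin shells of heavy (Fth1) and light (Ftl1) chains or leaves the cell through ferroportin, the product of Slc40a1 and the sole known cellular iron exporter of mammals. The iron regulatory proteins IRP1 (Aco1) and IRP2 (Ireb2) bind a stem-loop, the iron-responsive element, in iron-poor cells, which blocks translation when the element lies in the 5′ UTR and stabilises the transcript when it lies in the 3′ UTR.

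The elements that join these genes are shown because the members are regulated partly through them, at a level that transcript counts do not see in full. GENCODE M21 transcripts (GRCm38) were searched for the letters CNNNNNCAGTGN followed by NNNNN, read on the transcript strand only, where the last loop base is not G and the 5 bases on either side of the loop can pair (G-T pairs allowed). Among 21901 protein-coding genes, 23 (0.105%) held such a match in a 5′ UTR and 100 (0.457%) in a 3′ UTR. Of the 10 members, Fth1, Ftl1 and Slc40a1 held 1 match each in the 5′ UTR and Tfrc held 4 in the 3′ UTR. The other 6 had no match to these letters. The search covered this form of the element only, so the lack of a match does not show that a gene has no element. The capitals below mark the loop.
Fth1 5′ UTR, chr19:9982732-9982761, plus strand: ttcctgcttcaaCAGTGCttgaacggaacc
Ftl1 5′ UTR, chr7:45459778-45459807, minus strand: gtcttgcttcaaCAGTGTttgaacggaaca
Slc40a1 5′ UTR, chr1:45925464-45925493, minus strand: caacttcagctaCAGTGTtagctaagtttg
Tfrc 3′ UTR match 1, chr16:32631219-32631248, plus strand: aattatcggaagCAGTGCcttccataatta
Tfrc 3′ UTR match 2, chr16:32631598-32631627, plus strand: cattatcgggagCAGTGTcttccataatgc
Tfrc 3′ UTR match 3, chr16:32631663-32631692, plus strand: ctatatcggagaCAGTGAtctccatatgtt
Tfrc 3′ UTR match 4, chr16:32631710-32631739, plus strand: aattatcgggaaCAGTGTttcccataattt
Erythroid precursors are known to make a second ferroportin transcript without the element, and gene counts do not separate the 2 forms.

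Between preleukaemic and leukaemic TgSpi1FA-/- cells, the comparison of model 1 that asks what accompanies the leukaemic state without Fanca, 3 of the 10 genes fell: Slc40a1, Tfr2 and Aco1. A gene was called at an edgeR adjusted p under 0.05 and at least a 1.5-fold change, and 13.3% of the 13393 genes tested met this (6.49% lower). The median log2 fold change of the 10 genes was -0.66 against -0.00 over all genes tested, with 8 of the 10 below 0. The groups did not overlap for 5 members, all lower in leukaemic cells (Slc40a1, Tfr2, Steap3, Aco1 and Ftl1), beside 38.7% of all genes in either direction and 19.3% lower. Against the preleukaemic TgSpi1FA+/+ cells, the same 3 leukaemic libraries had 2 members called, Slc40a1 and Steap3, both lower, beside 7.01% of all genes. For those 2, Tfr2 and Aco1 every leukaemic library lay below every TgSpi1FA+/+ library, and 25.7% of all genes separated these groups in one direction or the other. Both comparisons share the leukaemic libraries, and each shares its preleukaemic libraries with the comparison of preleukaemic genotypes.

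Loss of Fanca in preleukaemic cells called 0 of the 10 members with edgeR and 0 with DESeq2, beside 0.00747% and 1.87% of all genes, and 3 members (Slc40a1, Tfr2 and Aco1) had an unadjusted p under 0.05, beside 8.65% of all genes. In model 2, leukaemic against preleukaemic TgSpi1FA+/+ cells, edgeR called 0 of the 10 members and 0 of 12970 genes (0%), with 2 members (Aco1 and Steap3) at an unadjusted p under 0.05 beside 19.9% of all genes, while DESeq2 called Aco1 alone among the members beside 3.45% of all genes. The difference between the leukaemic change of model 1 and that of model 2, tested as 1 contrast over all 17 libraries, was called at an edgeR adjusted p under 0.05 for Slc40a1 alone among the members, beside 4.61% of 14597 genes.

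**Figure D1:**
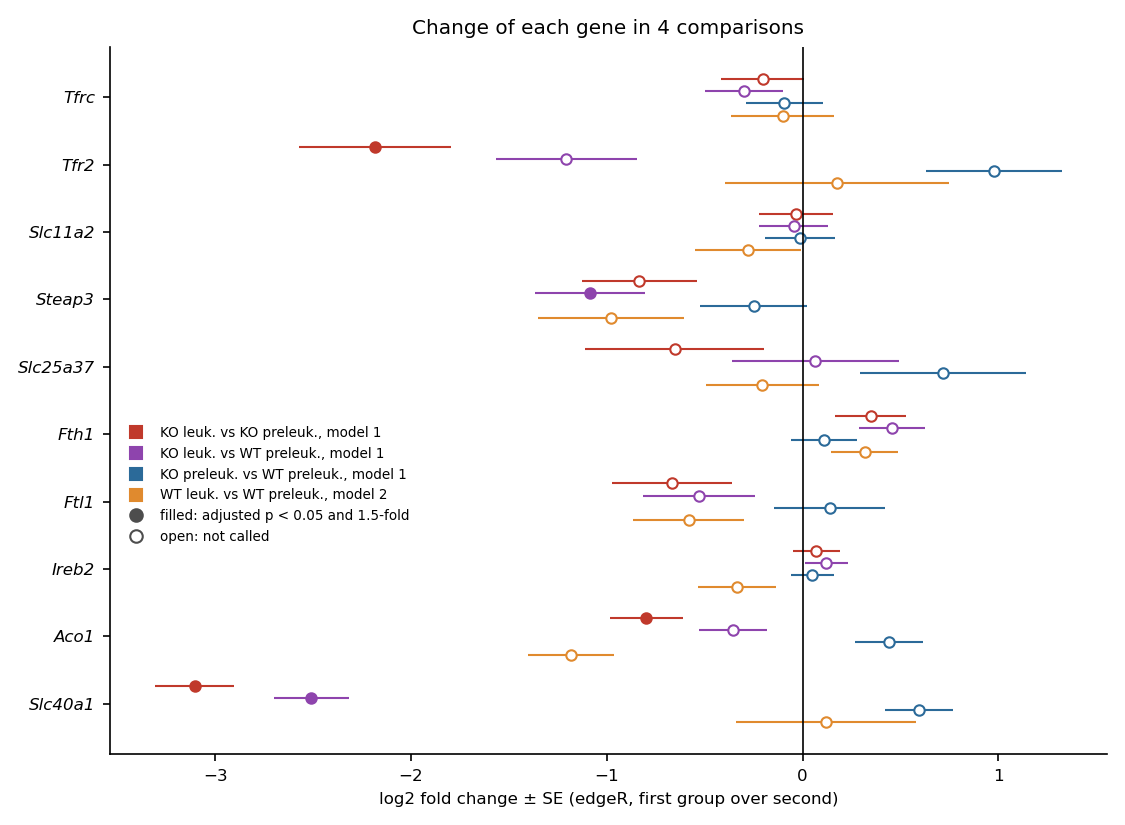
Fitted log2 fold changes with standard errors (horizontal axis) of the 10 genes (vertical axis) in 4 comparisons, filled where called. Slc40a1 lies furthest from 0, at -3.10 and -2.51 in the leukaemic cells of model 1, while its model 2 value of 0.12 has an error bar that crosses 0.

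Ferroportin showed the largest change of the 10 in the comparison within TgSpi1FA-/- cells. Slc40a1 (ENSMUSG00000025993, GRCm38 chr1:45908068-45926523, minus strand) was at 86.0, 88.3, 71.8 and 83.7 CPM in the 4 preleukaemic TgSpi1FA+/+ libraries. The 3 preleukaemic TgSpi1FA-/- libraries gave 127, 139 and 107 CPM. The 3 leukaemic TgSpi1FA-/- libraries gave 17.7, 14.9 and 10.8 CPM, from 645, 584 and 427 counts. The 3 groups of model 1 thus did not overlap, with the preleukaemic cells lacking Fanca highest and the leukaemic cells lowest.

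Mean Slc40a1 was 8.60 times lower in leukaemic than in preleukaemic TgSpi1FA-/- cells, a log2 fold change of -3.10 ± 0.20 (SE, n = 3 against 3, edgeR adjusted p = 0.000302). Against preleukaemic TgSpi1FA+/+ cells it was 5.69 times lower (log2 fold change -2.51 ± 0.19, n = 3 against 4, edgeR adjusted p = 0.00103). Leaving out any one library kept both calls, leukemic_39 included, without which the change within TgSpi1FA-/- cells was -2.91 (edgeR adjusted p = 0.000689). The difference between preleukaemic genotypes, 0.60 ± 0.17 on the log2 scale, did not pass the test (edgeR adjusted p = 0.535), although the groups did not overlap; 3 members shared that lack of overlap (Slc40a1 and Tfr2 higher, Steap3 lower), beside 8.53% of all genes.

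A second deposited table holds other counts for 7 of the same mice, the preleukaemic TgSpi1FA+/+ and leukaemic TgSpi1FA-/- groups. There Slc40a1 was at 74.3 to 173 CPM in the 4 preleukaemic and 12.2 to 35.4 CPM in the 3 leukaemic libraries, again without overlap. The log2 fold change was -2.47, close in size to that of the main table, with an edgeR adjusted p of 0.0579 that misses the threshold. An exact permutation test cannot fall below p = 0.1 with 3 mice against 3, or below 0.0571 with 3 against 4, so for a single gene the fit over all genes carried the test.

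In model 2 the same gene did not separate the stages. Slc40a1 was at 38.6, 81.4, 54.3 and 117 CPM in the 4 preleukaemic libraries and at 41.5, 74.3 and 121 CPM in the 3 leukaemic libraries. The ranges lay almost on top of each other, and the log2 fold change was 0.12 ± 0.46 (edgeR adjusted p = 0.911). The change of model 1 minus that of model 2 was -3.24 ± 0.54 on the log2 scale (edgeR adjusted p = 0.0285 over 17 libraries). That call was lost without preleukemic_77 (adjusted p = 0.0652), preleukemic_224 (0.0770), leukemic_28 (0.0717), leukemic_39 (0.0582) or leukemic_921 (0.0542), with the difference between -3.59 and -2.78 over all 13 single omissions from the groups compared.

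**Figure D2:**
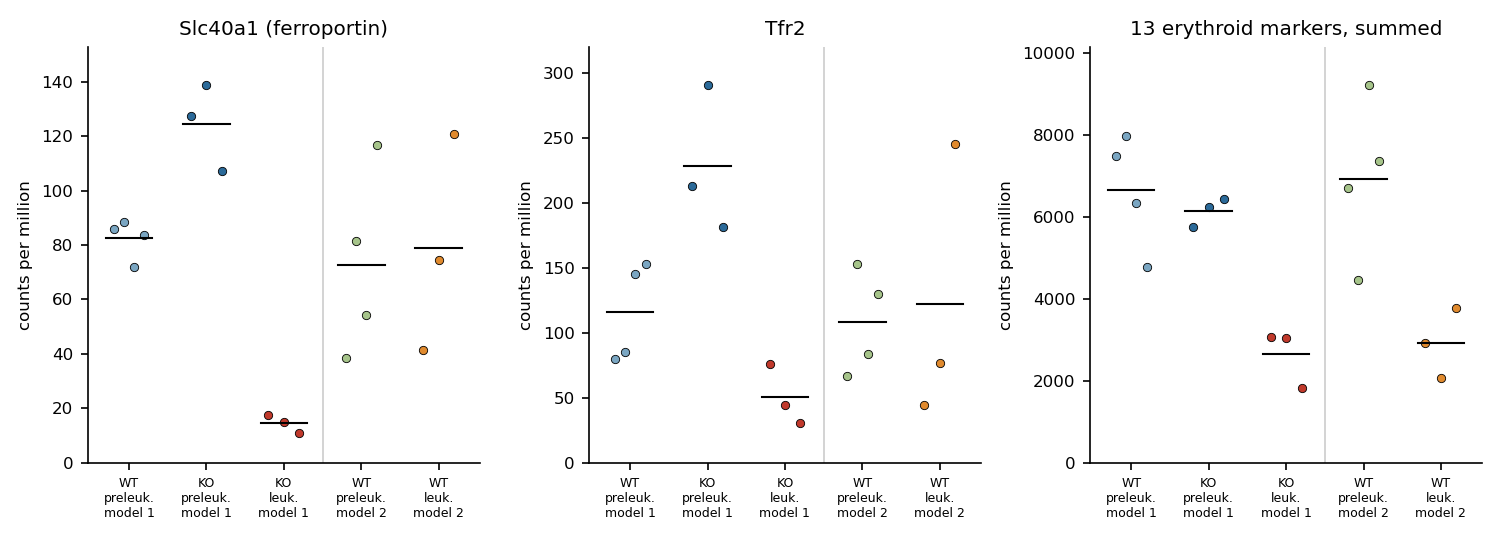
CPM on linear axes from 0 for Slc40a1, Tfr2 and the sum of 13 erythroid marker genes, with 1 point per mouse and a bar at the group mean. The erythroid sum is at 1812 to 3784 CPM in the 6 leukaemic libraries and at 4449 CPM or more in all others, whereas Slc40a1 is at 10.8 to 17.7 CPM in those of model 1 and at 41.5 to 121 CPM in those of model 2.

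Markers of the erythroid lineage had a smaller sum at the leukaemic stage than at the preleukaemic stage in each model. Mean Slc40a1 and Tfr2 did not follow this in model 2. Slc40a1 averaged 72.7 CPM before and 78.9 CPM after transformation there, and Tfr2 108 and 122 CPM, both with overlap. Of the 10 members, 7 had a log2 fold change below 0 in model 2. The summed level of 13 erythroid markers was 5765 to 6435 CPM in preleukaemic and 1812 to 3076 CPM in leukaemic TgSpi1FA-/- cells, and 4 of the 12 tested fell (Ermap, Ank1, Klf1 and Hbb-bt). In model 2 it was 4449 to 9223 CPM in preleukaemic and 2077 to 3784 CPM in leukaemic cells. All 12 were below 0 and edgeR called 0 of 12, with 6 at an unadjusted p under 0.05 beside 19.9% of all genes. The 6 markers of megakaryocytes summed to 31.1 to 40.03 CPM in preleukaemic and 166 to 251 CPM in leukaemic TgSpi1FA-/- cells. The preleukaemic TgSpi1FA+/+ cells of model 1, at 43.6 to 192 CPM, overlapped the leukaemic ones. All 4 tested were above 0 within TgSpi1FA-/- cells, and 1 was called (Itga2b, log2 fold change 3.20, edgeR adjusted p = 0.00472). Itga2b, at 16.1 to 21.8 and 92.8 to 243 CPM, made up most of the summed rise. Pf4 was at 9.19 to 23.0 and 0.837 to 69.9 CPM, with overlap. The part of these shifts in the iron gene results was not tested, and in bulk RNA fewer cells of a type and less RNA per cell cannot be told apart. Macrophages also express ferroportin strongly, and of their 13 listed markers 7 could be measured in each table. These summed to 2.28 to 7.88 CPM in preleukaemic TgSpi1FA+/+, 6.01 to 8.41 CPM in preleukaemic TgSpi1FA-/- and 2.63 to 3.70 CPM in leukaemic TgSpi1FA-/- cells, so that they were lower, without overlap, in the leukaemic cells lacking Fanca than in the preleukaemic ones. In model 2 they summed to 3.40 to 10.9 CPM before and 7.01 to 12.4 CPM after transformation.

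Within that list Cd163, the haemoglobin scavenger receptor, was lower in leukaemic than in preleukaemic TgSpi1FA-/- cells, as Slc40a1 was. It was at 2.43, 5.15 and 6.24 CPM in the 3 preleukaemic libraries and had no count in the 3 leukaemic libraries (edgeR adjusted p = 0.0772, DESeq2 adjusted p = 0.0103). Among TgSpi1FA+/+ cells of model 1, however, preleukemic_445 and preleukemic_479 had no Cd163 count either, with Slc40a1 at 86.0 and 88.3 CPM. The other macrophage marker that could be tested there, Cd68, had a log2 fold change of 0.14 (edgeR adjusted p = 0.850), and Adgre1, which encodes the defining marker F4/80, had no count in any TgSpi1FA-/- library. What the macrophage markers contribute to the Slc40a1 result was not tested.

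Of the 6 markers of stroma and endothelium, 2 could be tested within TgSpi1FA-/- cells, and they moved in opposite directions. Kdr, which codes for the endothelial VEGF receptor VEGFR2, was at 0.427, 0.643 and 0.323 CPM in preleukaemic and 7.32, 26.7 and 34.6 CPM in leukaemic TgSpi1FA-/- cells, a rise called by edgeR (log2 fold change 5.61 ± 0.82, adjusted p = 0.00770). Col1a2, a collagen chain of fibroblasts, was at 20.4, 9.77 and 273 CPM in the same preleukaemic and 0.356, 5.57 and 0.152 CPM in the leukaemic libraries, lower without overlap but called by DESeq2 alone (log2 fold change -5.64 ± 1.96, edgeR adjusted p = 0.0840, DESeq2 adjusted p = 0.00112). All 6 markers of this list together were at 10.5 to 274 and 8.69 to 35.5 CPM in these groups, at 3.27 to 54.4 CPM in TgSpi1FA+/+ cells of model 1, and at 0.275 to 31.9 CPM before and 0 to 0.0851 CPM after transformation in model 2. Their part in the iron gene results was not tested.

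Transferrin receptor 1 was among the most abundant members and did not separate any pair of groups in the main tables. Tfrc (ENSMUSG00000022797, GRCm38 chr16:32608920-32632794, plus strand) was at 2126, 2112, 1844 and 2090 CPM in the 4 preleukaemic TgSpi1FA+/+ libraries, and at 2220, 1623 and 1897 CPM in the 3 preleukaemic TgSpi1FA-/- libraries. The 3 leukaemic TgSpi1FA-/- libraries gave 2195, 1575 and 1215 CPM. In model 2 it was 1702 to 2461 CPM before and 1528 to 2557 CPM after transformation. The groups overlapped throughout, with log2 fold changes between -0.30 and -0.09 in the 4 comparisons of stage or genotype and edgeR adjusted p of 0.366 to 0.935. The second table gave a larger difference between leukaemic TgSpi1FA-/- and preleukaemic TgSpi1FA+/+ mice, at 724 to 1087 against 814 to 2518 CPM (log2 fold change -0.90 ± 0.39), which overlapped and did not pass (edgeR adjusted p = 0.276).

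Tfr2 codes for the second transferrin receptor, which in erythroid cells associates with the EPO receptor. It was at 79.8, 85.6, 146 and 153 CPM in the 4 preleukaemic TgSpi1FA+/+ libraries, and at 213, 291 and 182 CPM in the 3 preleukaemic TgSpi1FA-/- libraries. In the 3 leukaemic TgSpi1FA-/- libraries it was at 75.7, 44.4 and 30.7 CPM. As for Slc40a1, the 3 groups of model 1 did not overlap and kept the same order.

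Mean Tfr2 was 4.55 times lower in leukaemic than in preleukaemic TgSpi1FA-/- cells (log2 fold change -2.19 ± 0.39, edgeR adjusted p = 0.0127). Without leukemic_28 the value was -2.07 and the adjusted p 0.0579, and without leukemic_39 they were -1.90 and 0.0391. Against TgSpi1FA+/+ cells the change of -1.21 ± 0.36 did not pass with edgeR (adjusted p = 0.0711) but did with DESeq2 (0.0243), which called 14.8% of all genes there. In the second table that change was -1.34 ± 0.48 (edgeR adjusted p = 0.202), from 184 to 302 CPM in preleukaemic and 47.5 to 186 CPM in leukaemic mice, where the groups touched. The preleukaemic genotypes differed by 0.98 ± 0.35 on the log2 scale, which did not pass (edgeR adjusted p = 0.535).

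In model 2 Tfr2 was at 66.5, 153, 83.8 and 130 CPM in the 4 preleukaemic libraries and at 44.7, 76.9 and 246 CPM in the 3 leukaemic libraries. Library leukemic_921 was the highest library of the 7 and the other 2 leukaemic libraries were among the 3 lowest, so that the log2 fold change of 0.18 ± 0.57 became -0.82 without it. The difference between the models, -2.39 ± 0.74, did not pass with edgeR (adjusted p = 0.0677) and passed with DESeq2 (0.0240), which called 13.6% of all genes.

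Steap3 codes for the endosomal ferrireductase. It was at 230, 242, 298 and 235 CPM in the 4 preleukaemic TgSpi1FA+/+ libraries, at 228, 182 and 223.9 CPM in the 3 preleukaemic TgSpi1FA-/- libraries, and at 175, 113 and 67.0 CPM in the 3 leukaemic TgSpi1FA-/- libraries. Every leukaemic library lay below every preleukaemic one in model 1. The fall against TgSpi1FA+/+ cells (log2 fold change -1.08 ± 0.28, edgeR adjusted p = 0.0493) only just passed, and was lost without any one of the 4 TgSpi1FA+/+ libraries, leukemic_28 or leukemic_39 (adjusted p = 0.0520 to 0.159). The second table gave -1.12 ± 0.49 for it, without a call (edgeR adjusted p = 0.271), and there the highest leukaemic mouse, at 192 CPM, reached just above the lowest preleukaemic one, at 191 CPM. Within TgSpi1FA-/- cells the value was -0.83 ± 0.29 (edgeR adjusted p = 0.0859), and without leukemic_26 it was -1.22 with an adjusted p of 0.0155.

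In model 2 Steap3 was at 198, 230, 211 and 150 CPM in the 4 preleukaemic libraries and at 57.9, 75.8 and 167 CPM in the 3 leukaemic libraries. Only leukemic_921 reached into the preleukaemic range, and the log2 fold change of -0.98 ± 0.37 did not pass (edgeR adjusted p = 0.210). The leukaemic changes of the models differed by 0.12 ± 0.50 on the log2 scale, which did not pass (edgeR adjusted p = 0.904).

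Slc11a2, which codes for the DMT1 transporter, did not pass in any comparison. In the main tables it ranged from 129 to 200 CPM in the 10 libraries of model 1 and from 85.6 to 177 CPM in the 7 of model 2. Its log2 fold changes in the 3 comparisons of model 1 were between -0.05 and -0.01, and that of model 2 was -0.28 ± 0.27 (edgeR adjusted p = 0.603). The second table differed from this: Slc11a2 was at 203 to 272 CPM in preleukaemic TgSpi1FA+/+ and 94.8 to 194 CPM in leukaemic TgSpi1FA-/- mice, lower without overlap (log2 fold change -0.64 ± 0.27, edgeR adjusted p = 0.256).

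**Figure D3:**
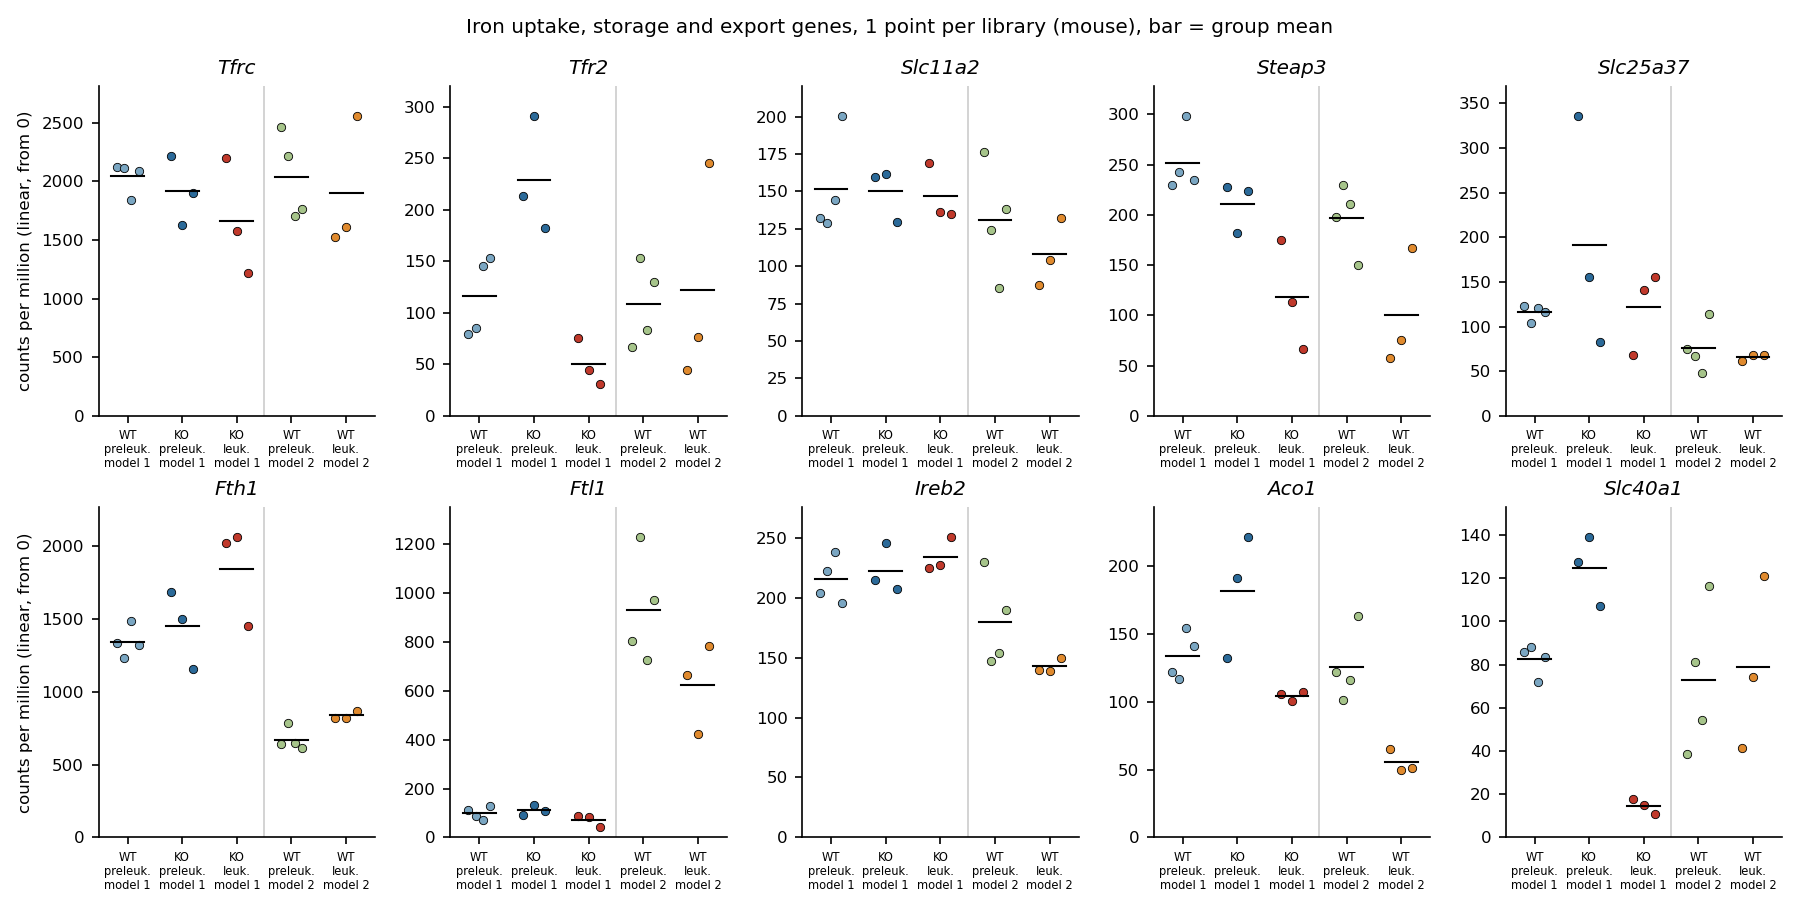
CPM of each of the 10 genes (linear axes from 0, scales differ between panels) in 17 libraries of 5 groups, with 1 point per mouse and a bar at the group mean. The red points of Slc40a1 and Aco1, leukaemic TgSpi1FA-/- cells at 10.8 to 17.7 and 100 to 107 CPM, lie below all other points of model 1. The same holds for Tfr2, at 30.7 to 75.7 CPM, and Steap3, at 67.0 to 175 CPM.

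Mitoferrin 1 did not pass in any comparison and was most variable in preleukaemic TgSpi1FA-/- cells. Slc25a37 was at 124, 104, 121 and 116 CPM in the 4 preleukaemic TgSpi1FA+/+ libraries, at 336, 156 and 83.0 CPM in the 3 preleukaemic TgSpi1FA-/- libraries, and at 68.5, 141 and 156 CPM in the 3 leukaemic TgSpi1FA-/- libraries. Library preleukemic_77 was far above the others. The log2 fold change between the TgSpi1FA-/- groups was -0.65 ± 0.46 (edgeR adjusted p = 0.357) and 0.04 without that library. In model 2 the libraries ranged from 47.8 to 115 CPM before and 61.5 to 68.5 CPM after transformation. In the second table it was at 161 to 422 CPM in preleukaemic TgSpi1FA+/+ and 164 to 192 CPM in leukaemic TgSpi1FA-/- mice, with overlap.

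Ferritin heavy chain, the ferroxidase subunit, did not pass in any comparison. Fth1 (GRCm38 chr19:9980598-9985098, plus strand) was at 1333, 1229, 1483 and 1320 CPM in the 4 preleukaemic TgSpi1FA+/+ libraries and at 1688, 1499 and 1159 CPM in the 3 preleukaemic TgSpi1FA-/- libraries. The 3 leukaemic TgSpi1FA-/- libraries gave 2020, 2059 and 1449 CPM, 2 of them above every preleukaemic library of model 1. The log2 fold changes were 0.35 ± 0.18 within TgSpi1FA-/- cells and 0.46 ± 0.17 against TgSpi1FA+/+ cells (edgeR adjusted p = 0.216 and 0.121), and the second table gave -0.27 for the latter. In model 2 Fth1 was 643, 785, 646 and 613 CPM in the 4 preleukaemic libraries and 819, 822 and 870 CPM in the 3 leukaemic libraries, higher without overlap (log2 fold change 0.32 ± 0.17, edgeR adjusted p = 0.338). Fth1 and Aco1 were the 2 members whose groups did not overlap in model 2, beside 20.1% of all genes.

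The level of ferritin light chain depended on the table. Ftl1 (GRCm38 chr7:45457944-45459884, minus strand) was at 41.0 to 133 CPM in the main table of model 1 and at 423 to 1228 CPM in that of model 2. In the second table of 7 model 1 mice it was 8.69 to 16.5 times its level in the main table for the same mouse (median 10.7), and 83 of 11014 genes (0.754%) had a mean ratio at least as high. The processed pseudogene Ftl1-ps1 had 0 to 2 counts in the main table of model 1, 57 to 310 in the second table and 77 to 320 in model 2. Levels of Ftl1 are therefore not comparable between tables, the cause of the gap was not tested, and how reads shared with ferritin pseudogenes were assigned is not given in the sources used here.

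Within a table, the light chain was lower relative to the heavy chain in leukaemic cells, each time without overlap. The ratio of Ftl1 to Fth1 counts was 0.0538, 0.0890 and 0.0927 in the 3 preleukaemic TgSpi1FA-/- libraries and 0.0425, 0.0398 and 0.0283 in the 3 leukaemic ones. The 4 preleukaemic TgSpi1FA+/+ mice of the same table had ratios of 0.0488 to 0.0975. In the second table the ratio was 0.951 to 1.09 in preleukaemic TgSpi1FA+/+ and 0.799 to 0.828 in leukaemic TgSpi1FA-/- mice. In model 2 it was 1.25, 1.57, 1.13 and 1.58 in the 4 preleukaemic libraries and 0.812, 0.515 and 0.899 in the 3 leukaemic libraries. This ratio needs no scaling for library size, and it was chosen after its values were seen.

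The mean ratio was 2.13 times lower in leukaemic than in preleukaemic TgSpi1FA-/- cells (exact permutation p = 0.100, two-sided, n = 3 against 3, the smallest possible). Against preleukaemic TgSpi1FA+/+ cells it was 2.05 times lower in the main table of model 1 and 1.21 times lower in the second table of the same mice. The size of this difference thus depended on the table. In model 2 the ratio was 1.86 times lower in the leukaemic cells. Each of these 3 had an exact permutation p of 0.0571 (n = 3 against 4, also the smallest possible). A ratio to Fth1 that was lower without overlap was found for 27.8% of 11261 genes within TgSpi1FA-/- cells, 22.9% of 11121 genes in model 2 and 3.53% of 12089 genes in the second table. For the comparison with TgSpi1FA+/+ cells in the main table no such share is given, so that lack of overlap stands without a background. By itself Ftl1 did not pass in any comparison, with log2 fold changes of -0.67 ± 0.31 within TgSpi1FA-/- cells and -0.58 ± 0.28 in model 2 (edgeR adjusted p = 0.166 and 0.298).

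**Figure D4:**
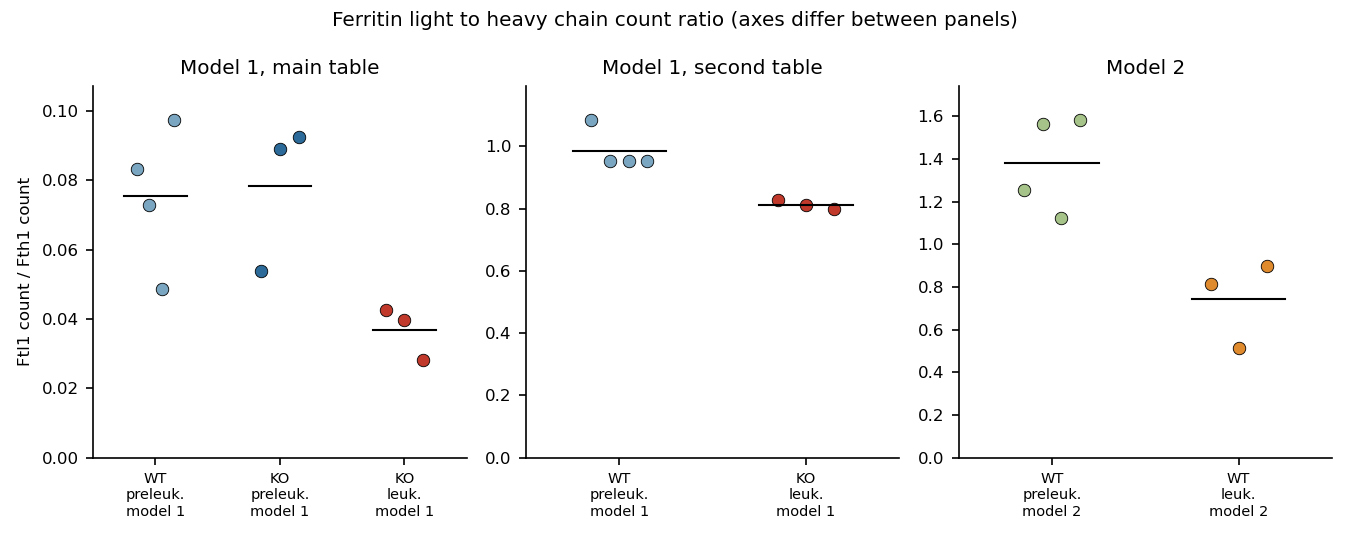
Ratio of Ftl1 to Fth1 counts (linear axes from 0 that differ between panels) in the main table of model 1, the second table of 7 of its mice and model 2, with 1 point per mouse and a bar at the group mean. Leukaemic libraries lie below preleukaemic ones in each panel, at 0.0283 to 0.0425, 0.799 to 0.828 and 0.515 to 0.899, and the panels differ in level by more than the stages do.

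Of the iron regulatory proteins, Aco1 fell in leukaemic TgSpi1FA-/- cells and Ireb2 did not pass in any comparison. Aco1, whose product IRP1 is also the cytosolic aconitase, was at 122, 117, 154 and 141 CPM in the 4 preleukaemic TgSpi1FA+/+ libraries and at 132, 192 and 221 CPM in the 3 preleukaemic TgSpi1FA-/- libraries. The 3 leukaemic ones gave 106, 100 and 107 CPM, below every preleukaemic library of model 1. In model 2 Aco1 was at 122, 101, 116 and 163 CPM in the 4 preleukaemic libraries and at 65.4, 49.4 and 51.4 CPM in the 3 leukaemic libraries, again with no overlap. The study listed Aco1 on these samples among genes repressed in both leukaemia models, so its direction here is not independent evidence.

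Mean Aco1 was 1.74 times lower in leukaemic than in preleukaemic TgSpi1FA-/- cells (log2 fold change -0.80 ± 0.19, edgeR adjusted p = 0.0275). The call was lost without preleukemic_224 (adjusted p = 0.0904), preleukemic_40 (0.0720), leukemic_28 (0.0963) or leukemic_39 (0.0714), and also when only the 2 compared groups were fitted (log2 fold change -0.76, edgeR adjusted p = 0.0669). In model 2 it was 2.27 times lower (log2 fold change -1.18 ± 0.22), which did not pass with edgeR (adjusted p = 0.162) and passed with DESeq2 (0.00762). Against TgSpi1FA+/+ cells of model 1 the change was -0.36 ± 0.18 (edgeR adjusted p = 0.227). In the second table that difference was -0.82 ± 0.21, from 93.5 to 129 CPM in preleukaemic TgSpi1FA+/+ and 50.4 to 74.5 CPM in leukaemic TgSpi1FA-/- mice without overlap, and did not pass either (edgeR adjusted p = 0.114).

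Ireb2 stayed between 196 and 250 CPM in all 10 libraries of model 1. Its log2 fold change was 0.07 ± 0.12 within TgSpi1FA-/- cells (edgeR adjusted p = 0.717). In model 2 it was at 230, 147, 154 and 190 CPM in the 4 preleukaemic libraries and at 140, 139 and 150 CPM in the 3 leukaemic libraries. Those groups overlapped, and the log2 fold change of -0.33 ± 0.20 did not pass (edgeR adjusted p = 0.382).

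Levels of different genes were compared roughly within a table as CPM per kilobase of exon. Exon length counted all annotated exons of a gene, 3469 bases for Fth1 and 6185 for Tfrc, which can exceed the transcript expressed. The order given here depends on these lengths. By this measure Fth1 was highest in the 3 groups of model 1 in the main table. Its mean levels were 387, 418 and 531 CPM per kb in preleukaemic TgSpi1FA+/+, preleukaemic TgSpi1FA-/- and leukaemic TgSpi1FA-/- cells. Tfrc came next at 330, 309 and 269 CPM per kb, and in preleukaemic TgSpi1FA-/- cells the libraries of both genes overlapped. In model 2 Ftl1 led at 696 and 465 CPM per kb, followed by Tfrc at 329 and 307 and Fth1 at 194 and 241 CPM per kb, and the place of Ftl1 rests in both models on the counts described above. In the second table of model 1 it was Ftl1 that led, at a mean of 864 CPM per kb in preleukaemic TgSpi1FA+/+ and 592 CPM per kb in leukaemic TgSpi1FA-/- mice, followed by Fth1 at 340 and 281 and Tfrc at 265 and 142 CPM per kb. Slc40a1 was last in all 5 groups, at 9.16, 13.8 and 1.61 CPM per kb in model 1 and 8.08 and 8.77 CPM per kb in model 2. The middle of the order, Steap3, Aco1, Tfr2, Slc11a2, Ireb2 and Slc25a37, reached at most 52.7 CPM per kb, with most neighbours overlapping. Tfr2 held the fourth place in preleukaemic TgSpi1FA-/- cells, at 52.7 CPM per kb, and the ninth in the leukaemic ones, at 11.6 CPM per kb.

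The genes whose levels followed Tfrc, Slc25a37 and Fth1 most closely were ranked by Pearson's r of log2 CPM over the 17 libraries, centred within each model, among 7966 genes of at least 10 CPM in both models. For Tfrc they were Vrk1 (r = 0.89), a chromatin kinase, Hmmr (r = 0.88), a spindle protein, and Tbc1d9b (r = 0.88). For Slc25a37 they were Clasrp (r = 0.84), Snapc4 (r = 0.84) and Rif1 (r = 0.79). For Fth1 they were Snhg6 (r = 0.86), Gas5 (r = 0.81) and Snhg5 (r = 0.78), all host genes of small nucleolar RNAs. The libraries share preparation, depth and group within each model, so these values describe the data and carry no test.

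Of 59 further genes of iron handling, 43 could be tested in model 1 and 42 in model 2. Within TgSpi1FA-/- cells 5 of the 43 passed, 2 higher and 3 lower, against the background of 13.3%, and their median log2 fold change was -0.04. Both that rose code for metal transporters that carry non-transferrin-bound iron, ZIP14 and ZIP8. Slc39a14 was at 4.36 to 11.9 CPM in preleukaemic and 51.2 to 66.7 CPM in leukaemic cells (log2 fold change 3.02 ± 0.57, edgeR adjusted p = 0.0150). Slc39a8 was at 60.0 to 121 and 195 to 220 CPM (1.12 ± 0.31, edgeR adjusted p = 0.0414). For both, the leukaemic libraries lay above all preleukaemic ones of either genotype.

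The 3 that fell serve haem transport and mitochondrial or cytosolic iron-sulphur metabolism. Slc48a1, which codes for the haem transporter HRG1, was at 272 to 344 CPM in preleukaemic and 114 to 159 CPM in leukaemic TgSpi1FA-/- cells (log2 fold change -1.12 ± 0.17, edgeR adjusted p = 0.00878). Nubp2, a scaffold for cytosolic iron-sulphur clusters, was at 132 to 177 and 69.2 to 93.3 CPM (-0.89 ± 0.15, edgeR adjusted p = 0.0116). Fdxr, the ferredoxin reductase of mitochondria, was at 25.8 to 40.5 and 13.8 to 20.1 CPM (-1.02 ± 0.23, edgeR adjusted p = 0.0259). The same 3 genes were the only ones of the 43 that passed against TgSpi1FA+/+ cells, with log2 fold changes of -0.81, -0.79 and -0.99, but 0 of the 43 passed without leukemic_28, leukemic_39, preleukemic_445 or preleukemic_479, 1 without preleukemic_451, 5 without leukemic_26, and 0 in the second table. Within TgSpi1FA-/- cells the 5 calls became 3 without leukemic_28, leukemic_39 or preleukemic_77 and 2 without preleukemic_224.

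Between preleukaemic genotypes 0 of the 43 passed with edgeR, beside 0.00747% of all genes. An unadjusted p under 0.05 was found for 3 of them, beside 8.65% of all genes. In model 2, 0 of the 42 passed with edgeR, beside 0% of all genes. There 12 had an unadjusted p under 0.05, beside 19.9% of all genes, and DESeq2 called 3, beside 3.45%. Among abundant genes without a call there, the iron chaperone gene Pcbp1 was at 203 to 243 CPM in preleukaemic and 134 to 150 CPM in leukaemic cells (log2 fold change -0.64, edgeR adjusted p = 0.162).

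The leukaemic changes of the models differed for 5 of 43 such genes (edgeR adjusted p under 0.05), beside 4.61% of all genes. Fbxl5, which codes for the iron-sensing subunit of the ubiquitin ligase that degrades IRP2, was at 47.9 to 54.1 CPM in preleukaemic and 40.8 to 49.9 CPM in leukaemic TgSpi1FA-/- cells, and at 27.2 to 62.9 and 78.8 to 104 CPM in those of model 2 (difference -1.42 ± 0.39, edgeR adjusted p = 0.0494). Vps35, a retromer subunit, was at 499 to 604 and 356 to 420 CPM in TgSpi1FA-/- cells and at 444 to 543 and 674 to 683 CPM in model 2 (difference -0.94 ± 0.19, edgeR adjusted p = 0.0292). Pcbp2, which codes for an iron chaperone, went the other way, at 525 to 592 and 644 to 797 CPM in TgSpi1FA-/- cells and 345 to 480 and 220 to 266 CPM in model 2 (difference 1.08 ± 0.22, edgeR adjusted p = 0.0285).

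The remaining 2 were Nfu1, a carrier of mitochondrial iron-sulphur clusters (difference -1.02 ± 0.27, edgeR adjusted p = 0.0484), and Abcg2, a haem exporter gene. Abcg2 had 0 to 49 counts in preleukaemic and 70 to 5978 counts in the 3 leukaemic TgSpi1FA-/- libraries, and 241 to 3356 and 0 to 11 counts in model 2, so no fold is given (edgeR adjusted p = 0.0298). None of these 5 calls held in every omission of 1 mouse: 0 of the 43 genes passed without leukemic_28, leukemic_39, preleukemic_224, preleukemic_40, preleukemic_77, leukemic_601 or leukemic_921, 1 without leukemic_606, 3 without preleukemic_633 or preleukemic_837, and 8 without leukemic_26.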

How the data were processed

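RNA was sequenced from 17 libraries, 10 of model 1 and 7 of model 2, and the authors deposited read counts per gene. Per the labels and the submitters' processing notes, libraries were made with a stranded poly(A) kit, and bcl2fastq 2.17.1.14, STAR 2.5.3a and HTSeq 0.6.1p1 were used with mouse build GRCm38 (mm10); the counting options are not given in the sources used here. The deposited counts of model 1 and model 2 were used as they stand. A second deposited table of counts for 7 mice of model 1 (35497594 to 171572736 counts per library) served as an alternative only. Depth was 29964576 to 40514205 counts per library in the main tables, so that counting error was small beside the spread between mice.

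Groups followed the titles and stage labels. CPM were computed with TMM scaling. Genes were filtered with filterByExpr and tested with edgeR 4.0.16 (glmQLFit and glmQLFTest, R 4.3.3), 1 fit per model and 1 over all 17 libraries for the difference between models, with Benjamini-Hochberg adjustment over all genes tested. Calls required 1.5-fold or more in either direction together with an adjusted p below 0.05, and for the difference between models the adjusted p alone; these thresholds follow the study, whose testing tool is not given in the sources used here. The code was tested on simulated data. Exact permutation tests used scipy 1.17.1.

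Alternatives were the DESeq2 1.42.0 Wald test, other scalings and filters, robust fitting, the 2 compared groups alone, the mice of preleukemic_445 and preleukemic_479 counted as 1 library, the second table, and each mouse left out in turn. Counting those mice as 1 library in the comparison within TgSpi1FA-/- cells was chosen after seeing the data. The genes, lists and tests were chosen with earlier results of these data known. Named were the 10 members, further iron genes that were called (at most 8 per comparison) with examples of abundant uncalled ones, the 3 genes nearest to Tfrc, Slc25a37 and Fth1, and ferritin pseudogenes of at least 1 CPM in any library. Gene positions and exon lengths are from GENCODE M21, which matched 99.8% of model 1 and 99.9% of model 2 gene identifiers. Markers of granulocytes, lymphocytes, mast cells and the cell cycle were also listed and are given in the closing part.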

Additional observations from a re-analysis of the deposited data

Results flagged for a closer look

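Tfrc in the preleukaemic TgSpi1FA+/+ cells of model 1 had 1 library apart from the rest: preleukemic_451 was at 1844 CPM, while the other 3 mice lay between 2090 and 2126 CPM, a gap of 0.871 of the whole range. This was the only one of 20 groups of 4 libraries tested, and chance flags about 1 in 20.

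The leukaemic change of Slc40a1 differed between the models by -3.24 on the log2 scale (edgeR adjusted p = 0.0285). It was lower in 3 of 3 leukaemic TgSpi1FA-/- libraries than in any preleukaemic one, and the stages overlapped in model 2. Strain, model and library preparation cannot be told apart in this difference.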

How the results depend on the processing

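Of 162 recomputed counts of called genes, 114 stayed within 1.5 times the reported one. The members called against TgSpi1FA+/+ cells became 1 with DESeq2 size factors, with library totals, without a filter, with robust fitting, with the 2 groups alone and with preleukemic_445 and preleukemic_479 as 1 library, and 0 in the second table; the further iron genes called there became 0 with those as 1 library and 0 in the second table. DESeq2 called 1 member and 3 further iron genes in model 2, beside 3.45% of all genes. In the difference between models it called 2 and 9, beside 13.6% of all genes, and DESeq2 size factors gave 3 further genes there. With 1 mouse left out, members called ranged from 1 to 4 within TgSpi1FA-/- cells, 1 to 3 against TgSpi1FA+/+ cells and 0 to 2 between models, and further iron genes from 2 to 6, 0 to 5 and 0 to 8. In the other 2 comparisons these counts stayed at 0. Slc40a1 kept its call within TgSpi1FA-/- cells under every alternative run, with log2 fold changes of -3.27 to -2.91 when 1 mouse was left out.

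Values that changed sign belonged to genes that were not called, and the cause was not tested. Within TgSpi1FA-/- cells Slc11a2 became 0.0096 with DESeq2, 0.015 with its size factors, 0.014 with library totals and 0.0016 with the 2 groups alone. Against TgSpi1FA+/+ cells Slc11a2 became 0.0032 with library totals, and Slc25a37 and Fth1 became -0.59 and -0.27 in the second table. Between models Ftl1 became 0.0012 with library totals. With 1 mouse left out, log2 fold changes within TgSpi1FA-/- cells ranged from -0.14 to 0.049 for Slc11a2, -1.02 to 0.036 for Slc25a37 and -0.45 to 0.0050 for Tfrc. Against TgSpi1FA+/+ cells they ranged from -0.16 to 0.12 for Slc11a2 and -0.14 to 0.35 for Slc25a37. Between preleukaemic genotypes they ranged from -0.019 to 0.25 for Fth1, -0.028 to 0.28 for Ftl1, -0.038 to 0.096 for Ireb2, -0.084 to 0.15 for Slc11a2 and -0.22 to 0.00094 for Tfrc. In model 2 they ranged from -0.34 to 0.063 for Slc25a37, -0.32 to 0.44 for Slc40a1, -0.82 to 0.58 for Tfr2 and -0.37 to 0.045 for Tfrc. Between models they ranged from -0.13 to 0.17 for Fth1, -0.31 to 0.18 for Ftl1, -0.84 to 0.22 for Slc25a37, -0.28 to 0.72 for Steap3 and -0.38 to 0.17 for Tfrc. No paired analysis was possible because the groups share no mouse. The few mice per group limit precision more than depth does, and p-values measure the spread between these mice only.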

Other observations

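Marker genes of other cell types differed in level. The 8 granulocyte markers summed to 0 to 0.568 CPM and the 8 lymphoid markers to 0 to 0.712 CPM over all 17 libraries. The 6 mast cell and basophil markers summed to 98.5 to 151 CPM in the leukaemic and 3.73 to 58.8 CPM in the preleukaemic cells of model 2, and to 0.304 to 92.8 CPM in model 1. The 10 cell cycle genes summed to 2874 to 5063 CPM, with 0 of 10 called in each of the 5 comparisons by edgeR and median log2 fold changes between -0.08 and -0.01.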
